A study of Mus musculus with 4 samples.

Results

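A CpG island inside or near Inpp5f on chromosome 7 and another inside or near Cdh15 on chromosome 8 were examined in mouse embryonic stem cells with and without Parp-1. They were chosen on their values: both belonged to the islands whose methylation signal was lowest in Parp-1 deficient cells relative to wild type, while keeping part of their enrichment. The members are all probes of the array between 128350000 and 128550000 on chromosome 7 (Inpp5f) and between 125550000 and 125800000 on chromosome 8 (Cdh15). These windows held 47 probes in 8 runs, out of 14121 runs on the array, a run being at least 3 probes with neighbouring starts at most 500 bp apart. In each window the run with the lowest value in the deficient cells relative to wild type is called the island here. Genomic DNA came from wild type J1 cells, from 2 Parp-1 deficient lines derived from J1 (clones 210-58 and 226-47), and from J1 cells treated with the Parp inhibitor PJ34, with 1 array each. Each line is a clone, so what a clone acquired apart from its lack of Parp-1 is part of its value, and no dose or time of PJ34 treatment could be taken from the labels. On each array, DNA pulled down with an antibody against 5-methylcytidine (IP, Cy5) was hybridised beside whole DNA of the same cells (Cy3). Wild type and clone 210-58 lay on slide 1, clone 226-47 and PJ34 on slide 2. A run's level is the mean over its probes of the log2 ratio of IP to whole DNA, centred on the array's median, so 0 is a typical probe and higher values mean more methylated DNA. The ratio is not a share of methylated alleles. Precision is limited by the number of arrays, and the deficient cells alone had a replicate. Arrays also differed in spread: the interquartile range over regions was 0.999 for clone 226-47 and 1.37 to 1.48 for the others.

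Inpp5f encodes a phosphatase that removes a phosphate from phosphoinositide lipids, and Cdh15 encodes M-cadherin, an adhesion protein of muscle cells. Both genes are known for imprinting. A CpG island within Inpp5f is the start of a shorter transcript made from the paternal allele, and it is methylated on the maternal allele, as is an island within Cdh15. Such marks are set in the oocyte and kept on that allele in the embryo and in stem cells, unlike most CpG islands, which stay free of methylation. Parp-1 attaches chains of poly(ADP-ribose) to proteins at chromatin, and PJ34 blocks that activity.

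Probes are listed by position without gene or sequence, and no header names the build of the positions, so the gene names rest on the windows, which were set for mm8. In the RefSeq gene table (GRCm38.p6) Inpp5f is 85.3 kb long and lies between Bag3 and Mcmbp, and Cdh15 is 19.0 kb long and lies between Acsf3 and Ankrd11. The other runs of the Cdh15 window are 96.3 kb before and 88.9 and 94.5 kb after its island, farther than that gene is long. The first run of the Inpp5f window lies 76.2 kb before its island and the others 51.5 and 56.0 kb after it. Each of these distances is within the length of Inpp5f, so that length alone does not place the runs inside or outside the gene. For an idea of the CpG content at the starts of both genes, their promoters from RefSeq are shown with every CG in capitals. They are not the sequences under the probes, which are not printed here, and both are on the plus strand of GRCm38.p6, Inpp5f at chr7:128611115-128611414 and Cdh15 at chr8:122848124-122848423.
Inpp5f: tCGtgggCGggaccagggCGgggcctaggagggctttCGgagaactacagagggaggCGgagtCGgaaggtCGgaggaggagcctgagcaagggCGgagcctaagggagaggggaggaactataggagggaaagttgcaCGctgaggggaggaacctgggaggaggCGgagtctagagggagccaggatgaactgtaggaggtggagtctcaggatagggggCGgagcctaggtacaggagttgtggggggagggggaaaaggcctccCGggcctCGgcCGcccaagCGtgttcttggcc
Cdh15: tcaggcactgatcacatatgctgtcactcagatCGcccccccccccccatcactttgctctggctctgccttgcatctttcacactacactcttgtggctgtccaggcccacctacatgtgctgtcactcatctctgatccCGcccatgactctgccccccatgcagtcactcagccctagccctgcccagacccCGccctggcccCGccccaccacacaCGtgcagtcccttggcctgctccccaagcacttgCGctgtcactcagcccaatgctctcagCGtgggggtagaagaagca
The Inpp5f promoter holds 15 CG pairs in 300 bases and the Cdh15 promoter 7, the median of the 27025 RefSeq promoters. Of these promoters, 35.2% hold at least 15.

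The Inpp5f island, chr7:128479186-128479782, had 6 probes in 597 bp. Wild type cells were at 3.79, clone 210-58 at 1.06, clone 226-47 at 1.73 and PJ34 treated cells at 4.80, with SDs over probes of 0.21, 0.44, 0.27 and 0.28. The order was thus PJ34, wild type, clone 226-47 and clone 210-58. Wild type probes lay between 3.60 and 4.08, those of clone 210-58 between 0.56 and 1.73, those of clone 226-47 between 1.52 and 2.23, and those under PJ34 between 4.28 and 5.04. The clones differed from wild type by -2.72 and -2.06, a mean of -2.39 with an SD between clones of 0.47. Their IP to whole DNA ratio was 15.1% and 24.1% of the wild type ratio. In both clones all 6 probes were lower than in wild type by 1 or more, as were 2.29% of all probes on the array and 3 of the 34 probes in the other runs of the windows. Clone 226-47 was above clone 210-58 at all 6. The difference lay in the IP channel, where the raw median Cy5 intensity of wild type was 1295, that of clone 210-58 255.5, that of clone 226-47 533.5 and that of PJ34 treated cells 2639, over a local background of 56 to 59.

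The Cdh15 island, chr8:125661363-125662022, had 7 probes in 660 bp. Here wild type was at 3.57, clone 210-58 at 1.02, clone 226-47 at 1.33 and PJ34 at 4.18, with SDs over probes of 0.19, 0.35, 0.29 and 0.29. The order of the arrays was that of the Inpp5f island. Wild type probes lay between 3.29 and 3.88, those of clone 210-58 between 0.44 and 1.32 and those of clone 226-47 between 0.78 and 1.64. The probes of the clones overlapped each other, although clone 226-47 was the higher at all 7. The clones differed from wild type by -2.55 and -2.25, a mean of -2.40 with an SD between clones of 0.22, or ratios of 17.1% and 21.1% of wild type. All 7 probes were lower by at least 1 in both clones. The raw median Cy5 intensity of wild type was 872, against 164 and 221 in clones 210-58 and 226-47 and 1169 in PJ34 treated cells. Every probe of both islands was well above background in both channels on all 4 arrays, and the scanner software's own error of a single probe's log2 ratio was 0.21 to 0.49.

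**Figure D1:**
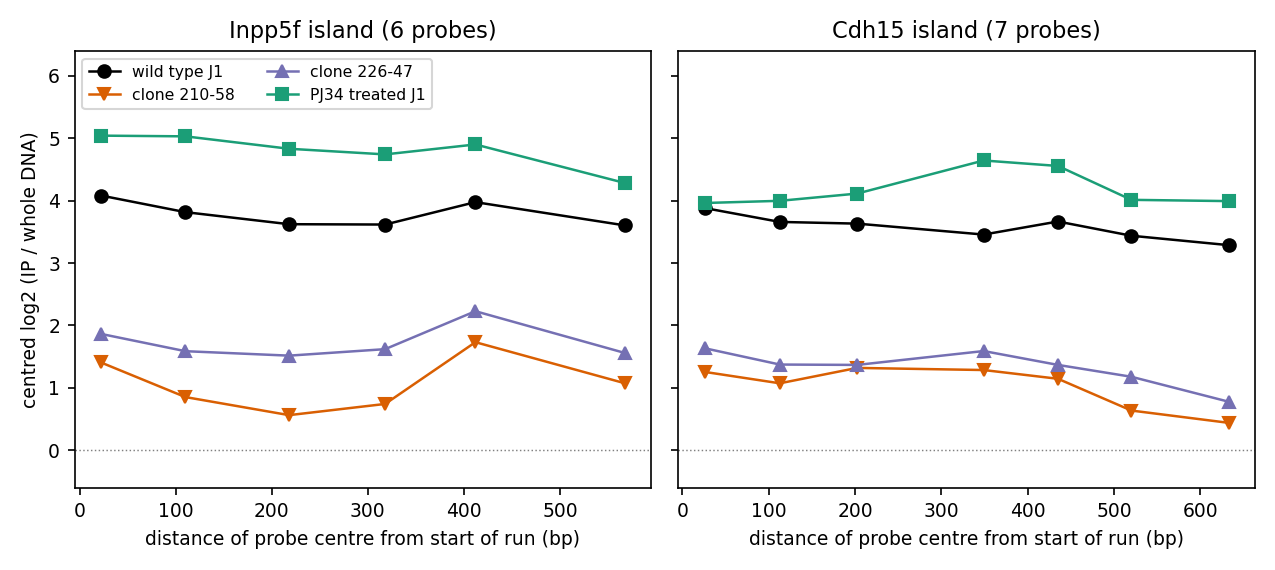
Centred log2 ratio of IP to whole DNA (y axis) of each probe of the Inpp5f island (6 probes, left) and the Cdh15 island (7 probes, right) against the distance of the probe's centre from the start of the run in bp, 1 line per array. The clones lie between 0.44 and 2.23 across both islands, wild type between 3.29 and 4.08 and PJ34 treated cells between 3.96 and 5.04.

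Since both islands were chosen for the difference between clones and wild type, no test of it is given. Within slide 1, clone 210-58 minus wild type was -2.72 at Inpp5f and -2.55 at Cdh15. Within slide 2, clone 226-47 minus PJ34 was -3.07 and -2.85. The clones' mean minus PJ34, which does not use the wild type array, was -3.41 at Inpp5f and -3.01 at Cdh15. The low clone values that chose the islands enter these differences too, so they are no separate support. With intensity loess within each array the differences from wild type were -1.51 and -1.26 and those from PJ34 -2.05 and -1.43.

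Both islands kept more signal than most regions of the same arrays. On the Inpp5f island wild type stood above 96.7% of all regions, clone 210-58 above 80.3% and clone 226-47 above 92.4% of the regions on the same array. For the Cdh15 island these were 96.1%, 79.6% and 89.4%. The 1051 regions at 2.5 or more in wild type had a median difference of -0.37 for the clones' mean. For clone 210-58 alone it was -0.15 and for clone 226-47 -0.58. Among these regions Cdh15 had the 7th and Inpp5f the 8th largest drop. The 6 regions with larger drops were all below 0.5 on both clones, with clone means of -1.57 to -0.0024 (at most 0.02 in clone 210-58 and 0.11 in clone 226-47), from wild type levels of 2.89 to 3.82. Clone means at Cdh15 and Inpp5f were 1.18 and 1.40. Both islands were chosen for a low difference with part of their enrichment kept, so these ranks and levels restate that choice. Regions lower by at least 1 in both clones made up 9.71% of those 1051 and 1.54% of all regions. The drop ranked just before Cdh15 was -3.64 and the one just after Inpp5f was -2.38, on chromosome 13.

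**Figure D2:**
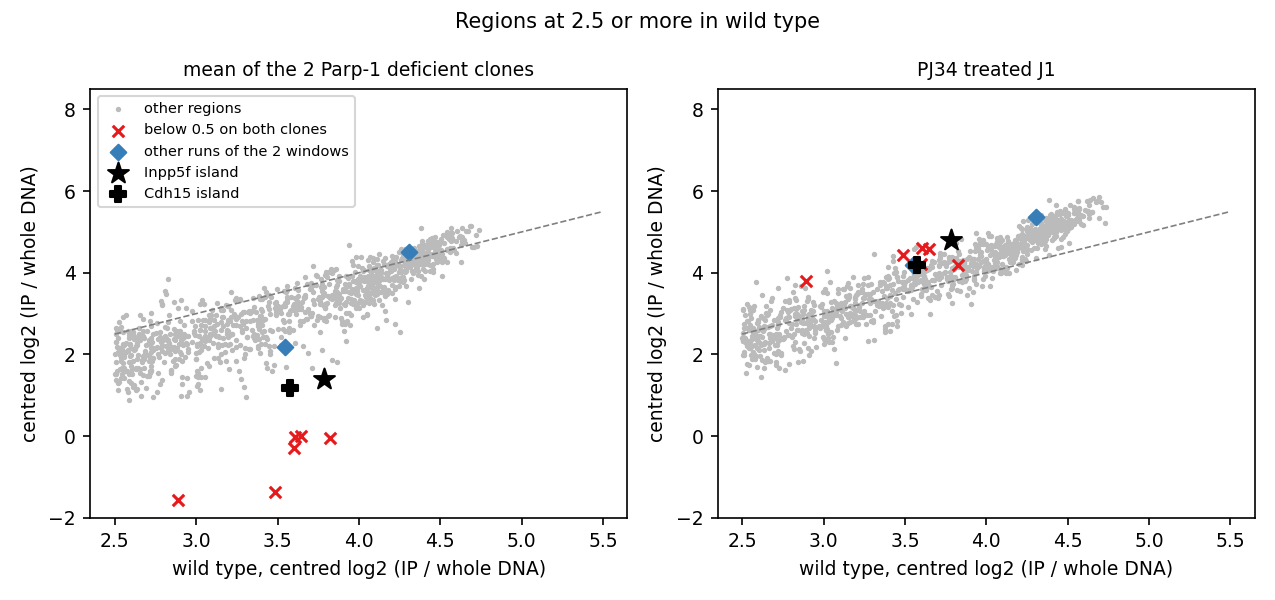
Level of each of the 1051 regions at 2.5 or more in wild type (x axis, centred log2 ratio of IP to whole DNA) against the mean of the 2 clones (left) and PJ34 treated cells (right), with equality as a dashed line. In the clones the Inpp5f (star) and Cdh15 (plus) islands lie at 1.40 and 1.18, above the 6 regions below 0.5 on both clones (crosses). These islands and those 6 regions are among the 110 of the 1051 regions below 2 on both clones. Under PJ34 the 2 islands and the 6 regions lie above the line.

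The other 6 runs are those left in the windows once the run with the lowest difference was taken from each, so a lack of calls among them is partly set by that choice. They were tested with limma across all 14121 regions, where 1.59% of regions were called lower and 1.19% higher in the clones at an adjusted p under 0.05. That balance, 225 of 393 calls lower, changed with the scaling, to 56 of 215 with normexp background correction and 27 of 27 with quantile normalization. None of the 6 was called, and 1 had an unadjusted p under 0.05. The test had 1 residual degree of freedom, from the clones, so its p-values take the single wild type array to vary like them. The 4 runs with low signal in wild type (-0.99 to 0.51) had differences of -0.06 to 0.53 in the clones (limma, Benjamini-Hochberg adjusted p between 0.573 and 0.9997). They include the run 76.2 kb before the Inpp5f island, where wild type was at 0.51, clone 210-58 at 0.98, clone 226-47 at 0.53 and PJ34 at -0.18, and probes scattered more in clone 210-58 (SD 1.01) than in wild type (SD 0.27).

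A pair of runs in the Cdh15 window, 5.19 kb apart, was enriched in wild type about as much as the Cdh15 island or more. The run at chr8:125750960-125751330, with 4 probes, was the most enriched of the window, with wild type at 4.31, clone 210-58 at 4.59, clone 226-47 at 4.42 and PJ34 at 5.36. It was not called, with a difference of 0.20 (SE 0.80, limma adjusted p = 0.9997), or -0.01 with each chromosome centred on its own median. The run at chr8:125756516-125757052, made of 5 probes, had wild type at 3.55, clone 210-58 at 2.25, clone 226-47 at 2.11 and PJ34 at 4.18. All 5 of its probes were lower in both clones, 3 of them by at least 1, and the clones had ratios of 40.8% and 37.0% of wild type. Its difference of -1.36 (SE 0.46) missed the threshold with a limma adjusted p = 0.0836. It passed, with the same direction, without the mean-variance trend (adjusted p = 0.0371), with medians over probes (0.0332), with each chromosome centred on its own median (0.0209) and with centring on the mode (0.00471), and over the other settings of the fit the adjusted p was 0.0719 to 0.334.

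**Figure D3:**
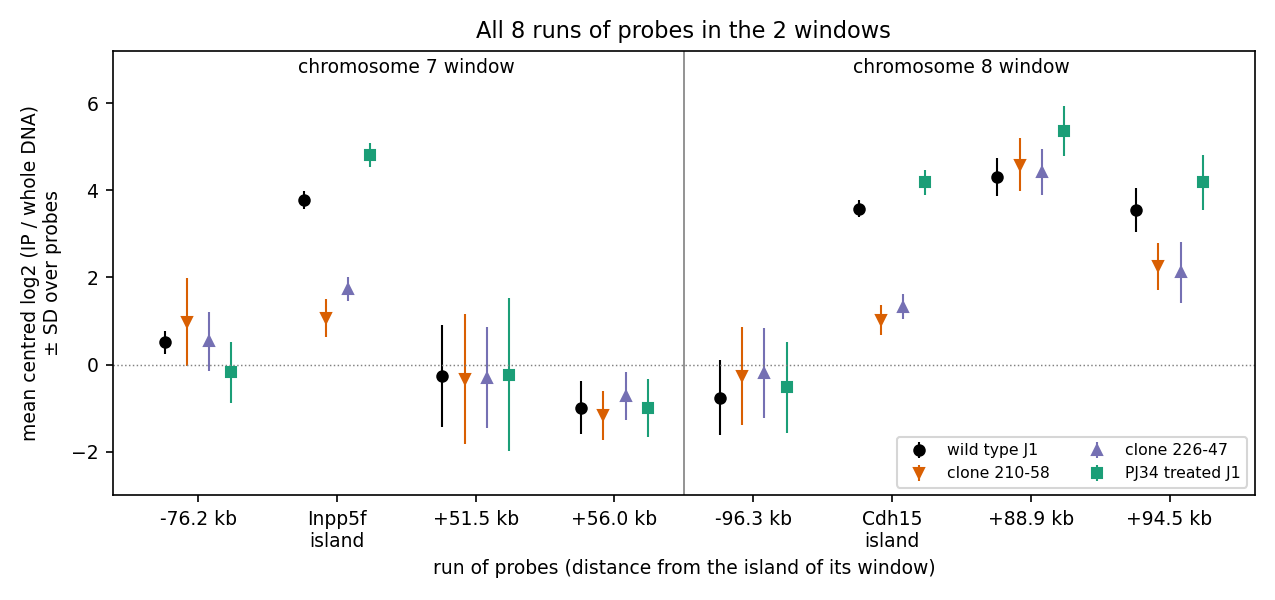
Mean centred log2 ratio of IP to whole DNA (y axis, bars are SDs over probes) of all 8 runs in the 2 windows, each labelled by its distance in kb from the island of its window, with 1 symbol per array. The clones lie more than 2 below wild type at both islands, 1.36 below on average at the run 94.5 kb after the Cdh15 island, and at the other 5 runs differ from it by -0.18 to 0.56.

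After PJ34 the Inpp5f island was higher than in untreated J1 cells by 1.02 and the Cdh15 island by 0.61, so no loss was seen at either. Probe by probe the difference was 0.68 to 1.21 at Inpp5f and 0.08 to 1.19 at Cdh15. Probes of 1 array are not replicates of a condition. With 1 array on each side there is no test, the arrays lay on different slides, and slide and treatment cannot be told apart. All 4 runs of the windows that were at 2.5 or more in wild type were higher by at least 0.5 after PJ34, as were 31.5% of the regions at that level and 11.1% of all regions. The 4 runs with low signal differed by -0.69 to 0.25. Among regions within 0.25 of its wild type level, 3 of 221 had a larger positive difference than the Inpp5f island and 21 of 203 a larger one than the Cdh15 island, with medians of 0.27 and 0.18. The size depended on the scaling. With quantile normalization the differences at Inpp5f and Cdh15 were 0.58 and 0.28, with scaling by the median absolute deviation 0.47 and 0.13, and with intensity loess 0.54 and 0.17. With medians over probes Cdh15 had 0.38. Over the regions most enriched in wild type, a smaller set than those at 2.5 or more, the median difference was 0.43 without rescaling. It was -0.08 with quantile normalization, -0.07 with deviation scaling and 0.01 with loess.

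The whole DNA channel differed between the windows. For the 24 probes of the Cdh15 window the median log2 Cy3 difference from wild type cells was -0.46 (clone 210-58), -0.45 (clone 226-47) and -0.10 (PJ34), with 22 of 24 probes lower in both clones. Over the 5440 probes of chromosome 8 the medians were -0.44 and -0.44, so the lower whole DNA signal of the window was that of the whole chromosome in both clones. Copy number itself was not measured. In the 23 probes of the Inpp5f window the medians were 0.08 and 0.05. At the Cdh15 island itself Cy3 differed by -0.36 in both clones, while the IP signal, centred in the same way, differed by -2.89 and -2.63. At the Inpp5f island Cy3 differed by 0.08 and 0.09 and the IP signal by -2.63 and -1.98. With each chromosome centred on its own median the Cdh15 difference was -2.61 and the Inpp5f difference -2.42. The part of the lower whole DNA signal in the Cdh15 values was not tested. The run 88.9 kb after the Cdh15 island, where Cy3 differed by -0.28 and -0.31, had IP differences of 0.02 and -0.21. These means include a first probe with a raw Cy3 signal of only 68 in wild type and Cy3 differences of 0.35 and 0.09. At the other probes of that run Cy3 differed by -0.43 to -0.57 in clone 210-58 and by -0.34 to -0.53 in clone 226-47.

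**Figure D4:**
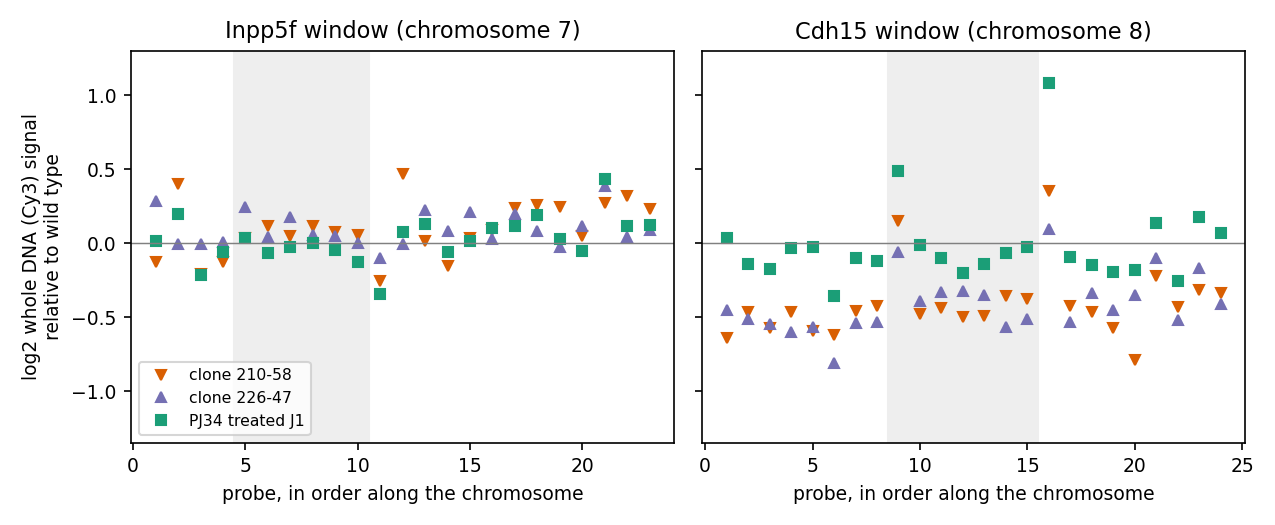
Difference of the centred log2 Cy3 (whole DNA) signal from wild type (y axis) for each probe of the Inpp5f window (23 probes, left) and the Cdh15 window (24 probes, right) in order along the chromosome, with the island shaded. In the Inpp5f window the clones have medians of 0.08 and 0.05, with 21.7% of probes below 0 in each. In the Cdh15 window they lie mostly near their medians of -0.46 and -0.45, and PJ34 treated cells have a median of -0.10. The first probe of the Cdh15 island and the first of the next run stand above the rest on every array plotted.

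Both islands were chosen for a like profile, so their likeness to each other is a description that the choice largely fixed. Over the levels on the 4 arrays the root mean square distance between them was 0.39, and no run outside the windows was nearer to Inpp5f. The nearest to Inpp5f were runs at chr9:91181853-91182451 (distance 0.62), chr17:27366643-27367031 (0.64) and chr17:87042133-87043537 (0.67). Nearer to Cdh15 than Inpp5f was 1 run, again that on chromosome 9 (0.27), at 3.29 in wild type, 1.01 and 1.38 in the clones and 3.73 after PJ34. The run at chr17:27366643-27367031 (0.41) and one at chr13:56531867-56532553 (0.47) followed. By the 3 differences from wild type, taken over regions at 2.5 or more there, each island had the same nearest runs in the same order as by levels. All these differences share the wild type array.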

How the data were processed

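The 2 windows, the islands and the comparisons were chosen with earlier results of these data known. Each intensity, per the file headers, is deposited as made by Agilent Feature Extraction 10.7.3.1 (the submitters' processing notes name version 9.1), background-subtracted, detrended and dye-normalized per channel. The deposited ratio in the series' value table equals processed Cy5 over Cy3. Control spots, 442 probes without a position and 30 with an outlier flag were left out, log2 ratios were centred on each array's median, and no further normalization was applied. Regions were fitted with limma 3.58.1 in R 4.3.3 (clones against wild type, mean-variance trend, Benjamini-Hochberg over 14121 regions), and the script was tested on simulated data. Arrays without a replicate were compared by size. The planned rule took the run with the highest wild type level as the island. In the Cdh15 window that is the run 88.9 kb after the one described, so the run with the lowest difference was used there instead, and both are reported. The likest runs were named by root mean square distance.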

Additional observations from a re-analysis of the deposited data

How the results depend on the processing

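The islands were lower in the clones than in wild type and PJ34 treated cells, and higher after PJ34 than in wild type, in every setting tried on these runs. The sizes that moved by more than the SD between clones, or for PJ34 minus wild type, which has no replicate, by more than the SD over probes, were as follows. Clones minus wild type was -1.87 at Inpp5f and -1.86 at Cdh15 with normexp background correction and -1.51 and -1.26 with intensity loess. Clones minus PJ34 at Inpp5f was -2.89 with normexp, -2.83 with quantile normalization, -2.67 with median absolute deviation scaling and -2.05 with loess. At Cdh15 it was -2.45, -2.53, -2.39 and -1.43 in the same order, -3.24 centred by chromosome and -2.75 with medians over probes. PJ34 minus wild type at Inpp5f was 1.29 with mode centring, which moved the median of all regions to 0.26, 0.58 with quantile normalization, 0.54 with loess and 0.47 with deviation scaling, and at Cdh15 0.17 with loess and 0.13 with deviation scaling. The Cy3 difference of the clones at Cdh15 was -0.44 with medians over probes and -0.31 with normexp. The planned rule, with the run of highest wild type level as the Cdh15 island, was set aside after seeing the data. By that rule the 4 values were 0.20 (reversed), -0.85, 1.05 and -0.29. The causes were not tested. Of the other 6 runs, 1 was called without the trend, centred by chromosome or by mode, or with medians over probes. Called regions numbered 393, but 0 with loess, 27 with quantile normalization, 182 without the trend, 215 with normexp and 781 with deviation scaling. Regions past a difference of 1 after PJ34 numbered 522, but 65 with loess, 101 with normexp, 800 with mode centring and 840 with medians over probes, and 3196 past 0.5. Leaving out either clone left the other clone's own difference from wild type, -2.06 or -2.72 at Inpp5f and -2.25 or -2.55 at Cdh15. With 2 clones that shift is by construction smaller than the SD between clones, so it is no check of the result. No count of calls without a clone could be had, since no residual degree of freedom was left. A paired analysis was not possible, since wild type and PJ34 had 1 array each.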

Other observations

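In the Cdh15 window 2 probes departed from the lower whole DNA signal of chromosome 8 in the clones. At the first probe of the Cdh15 island clone 210-58 had a log2 Cy3 difference from wild type of 0.15, clone 226-47 one of -0.06 and PJ34 one of 0.49. At the first probe of the run 88.9 kb further on these were 0.35, 0.09 and 1.08, with a raw Cy3 signal of only 68 in wild type.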
